A study of Mus musculus with 18 samples.

Results

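The 110 genes described here were those that lay higher in both MUNC-overexpressing lines of C2C12 cells than in control cells, in growth medium and again in differentiation medium. They were chosen from the expression values themselves. A gene was kept when its group mean of log2(FPM + 1) was at least 1 above control in each line and each medium. It also had to reach 0.5 FPM in at least 3 libraries, and members of a fixed set of gene families (Hox, collagen, laminin, integrin, protocadherin, semaphorin, ephrin, Eph receptor, Wnt, Fgf, Bmp, Oas, Ifi, H2, histone, myosin heavy chain, Igfbp, Mmp, Adamts, keratin and neurofilament genes) were left out by symbol. The rule found 122 genes before and 110 after that omission, out of 13869 genes that passed the filter on low values and 35275 genes in the table. The 12 omitted genes were Adamts12, Col4a5, Col6a1, Col6a2, Igfbp5, Itgbl1, Lama2, Mmp15, Pcdh7, Pcdha10, Sema3c and Sema3f. FPM is the unit of the deposited table, reads of a gene scaled for library size and not for gene length. Tests therefore compare the same gene between libraries. Sums over marker genes, and the ranking by mean level used to name genes, give more weight to genes with longer transcripts.

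C2C12 is a mouse myoblast line that stops dividing and fuses into myotubes when serum is withdrawn, and the stock used here is labelled PAX7 negative. MUNC, a noncoding transcript, comes from the region upstream of Myod1. The study held 3 lines, namely control cells (genotype Wild-type), MUNC spliced overexpressing cells (MS) and MUNC genomic overexpressing cells (MG). Each was sampled in growth medium with 20% fetal bovine serum (GM) and after 3 days in 2% horse serum (DM3), with 3 biological replicates in each of the 6 groups. Groups follow the sample titles and the tissue field. The source field disagrees with both for 9 of the 18 libraries, calling 4 GM libraries myotubes and 5 DM3 libraries myoblasts. The labels name neither the vector and promoter of the overexpressed RNA nor whether a line was a clone or a pool. No gene of the table carries MUNC in its symbol, so its own level was not analysed here.

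Skeletal muscle forms under the control of the myogenic regulatory factors, of which MyoD, the product of Myod1, commits cells to the lineage and binds the E-box sequence CANNTG in the genes it activates. The genes described here also include parts of other systems known in muscle, such as MuSK, the receptor kinase that organises the neuromuscular junction, and the GDNF co-receptor Gfra1. Cd34 marks quiescent satellite cells, and periostin is a matricellular protein of growing and injured tissue.

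Recovered depth was 38416702 to 68788327 reads per library, and the FPM worth of 3 reads was 0.0429 to 0.0757. The labelled cell type was checked against 9 muscle genes in the table. Of these, 3 averaged 0.5 FPM or more in control GM (Myf5 at 71.8, desmin at 24.2 and Acta1 at 20.7 FPM) and 5 in control DM3 libraries. Myog, the gene of myogenin, averaged only 0.0287 and 0.344 FPM in the 2 media, and Myod1 had 0 to 12 reads in each of the 6 control libraries. Endothelial, leukocyte and epithelial marker genes summed to at most 0.779, 5.53 and 0.749 FPM in any control library. In MG cells single genes of these lists were higher, with Cdh5 at 7.14 FPM and Krt8 at 10.3 FPM in GM. Not every other list was low in control cells. Bone and cartilage markers summed to 126 to 155 FPM in control GM and 157 to 190 FPM in control DM3 libraries. Runx2 averaged 86.0 FPM and Sox9 53.9 FPM in control GM. Neuron and glia markers summed to 21.9 to 65.6 FPM and 8.20 to 8.62 FPM, most of it Tubb3 (37.4 and 5.74 FPM on average). Smooth muscle, fibroblast and adipocyte markers are given below. In bulk RNA, a larger share of cells with a transcript and more of it in each cell cannot be told apart.

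The rule used nothing of the genes' sequence or position. RefSeq promoters (GRCm38.p6, 250 bases before to 50 after the first listed start of a gene) matched 80 of the 110 genes and 9822 of the 13869 tested genes. The promoter reference itself holds 27025 genes, called all promoters below. Some of the 80 have other listed starts that were not searched, such as Egr2 with 5 in total. The E-box CANNTG, searched on both strands like the other motifs, occurred in 57 of the 80 (71.3%), in 62.7% of tested and in 72.1% of all promoters. Its form CAGCTG, which MyoD family factors bind and which is itself a CANNTG, occurred in 17 (21.3%), against 15.3% and 16.1%. The AP-1 motif TGANTCA occurred in 1 (1.25%, against 5.08% and 7.93%) and the TATA motif TATAAA in 9 (11.3%, against 7.25% and 14.2%). The median ratio of observed to expected CpG was 0.563 in the 80 promoters, 0.763 over tested and 0.389 over all promoters, and 38 of the 80 (47.5%) reached 0.6, against 71.7% of tested promoters. These are descriptions without a test, and a match is not a binding site. The 250 bases before the RefSeq start are printed 5′ to 3′ for 3 genes of different behaviour that hold CAGCTG, in capitals. They are Musk, with the order control, MS, MG (chr4:58285712-58285961, plus strand), Sox11, which fell with DM3 (chr12:27342719-27342968, minus strand), and Htra3, which rose in all 3 lines (chr5:35679781-35680030, minus strand).
Musk: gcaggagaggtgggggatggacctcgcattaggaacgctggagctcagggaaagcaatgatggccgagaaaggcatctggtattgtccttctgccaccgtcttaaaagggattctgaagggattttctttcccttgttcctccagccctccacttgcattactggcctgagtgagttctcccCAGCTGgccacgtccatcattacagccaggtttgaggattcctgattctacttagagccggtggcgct
Sox11: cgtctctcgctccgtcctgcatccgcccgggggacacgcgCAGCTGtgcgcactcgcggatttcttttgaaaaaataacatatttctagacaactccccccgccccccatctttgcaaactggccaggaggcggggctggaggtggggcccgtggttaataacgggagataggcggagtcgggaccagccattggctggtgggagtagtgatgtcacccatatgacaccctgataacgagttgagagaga
Htra3: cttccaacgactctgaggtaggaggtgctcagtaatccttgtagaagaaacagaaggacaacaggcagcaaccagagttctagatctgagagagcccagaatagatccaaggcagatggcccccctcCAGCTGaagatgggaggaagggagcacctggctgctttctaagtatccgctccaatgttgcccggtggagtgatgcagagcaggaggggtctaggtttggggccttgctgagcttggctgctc

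The size of the difference from control chose the genes and is given as a description. The median difference over the 110 genes was 2.24 for MS and 1.96 for MG in GM, and 2.05 for MS and 2.22 for MG in DM3. Over all tested genes the corresponding medians were -0.02, -0.03, 0.01 and -0.01. The smallest of a gene's 4 differences was 2 or more for 27 genes and under 1.5 for 58. It was 3 or more for 4 genes, namely Cd200 (3.77), Pdgfd (3.21), Zfp532 (3.06) and Cd34 (3.01), followed by Pknox2 (2.99), Vangl2 (2.99), Ptprd (2.95) and Gfra1 (2.90). Just inside the threshold of 1 lay Egr2, N4bp2 and Dhrs3 (1.0 each), and just outside it Car13 (0.996), C030017K20Rik (0.995) and Gatsl2 (0.986). Both lines were set against the same control libraries, so the differences of MS and MG from control are not independent of each other.

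Every MS and MG library lay above every control library in GM for 107 of the 110 genes (7.59% of tested genes), in DM3 for 109 (13.1%) and in both media for 107 (4.12%). The rule used these values, so nothing is read from the counts. The exceptions in GM were Dhrs3, Egr2 and Gulp1, whose control libraries spread widely, and Egr2 was also the exception in DM3. Dhrs3, a retinal reductase, ranged from 1.29 to 15.3 FPM over the 3 control GM libraries and from 4.52 to 35.5 FPM over the 3 MG libraries. In control cells 30 of the 110 genes (27.3%) averaged under 0.5 FPM in both media, against 6.06% of tested genes. These 30 passed the filter only through the MUNC lines. As few as 2 of the 110, the Wnt receptor gene Fzd3 and Soga3, had no more than 3 reads in any control library.

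**Figure D1:**
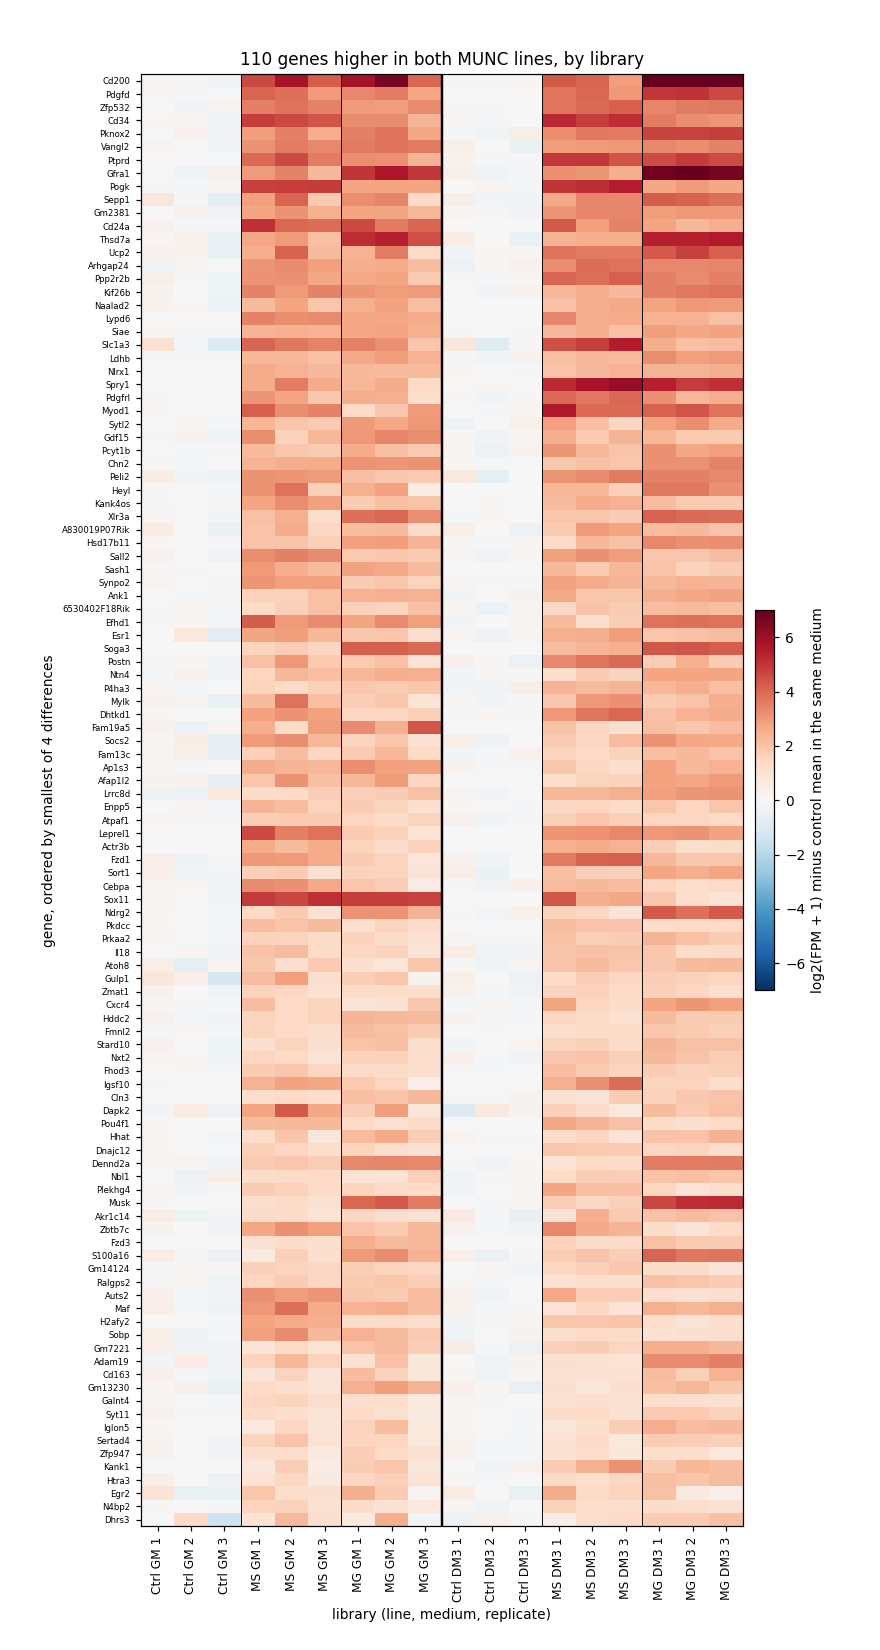
Heat map of the 110 genes (rows, ordered by the smallest of the 4 differences) in the 18 libraries (columns, by line, medium and replicate). Colour gives log2(FPM + 1) minus the control mean in the same medium. MS and MG columns are red for nearly all genes and control columns near white, as the rule requires, and Cd200 and Gfra1 are darkest in the 3 MG libraries in DM3.

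Whether the 110 genes respond to differentiation medium, and whether the lines differ from each other, was not part of the rule. These comparisons were tested with limma over all 13869 genes, with a call at a Benjamini-Hochberg adjusted p under 0.05. Differences are on the log2(FPM + 1) scale with their standard error (SE). The same libraries had served to choose the genes, and the 3 replicates are named biological by the labels without further detail. In control cells, 42 of the 110 genes were called (58.2% of all tested genes were), 35 of them higher in DM3 and 7 lower (29.6% and 28.6% of tested genes). In MS cells, 42 were called (35.6% of tested genes), and 31 rose and 11 fell (17.2% and 18.4%). In MG cells, 71 were called (51.4% of tested genes), and 61 rose and 10 fell (26.3% and 25.1%). The share of the 110 that rose was 31.8% in control, 28.2% in MS and 55.5% in MG cells. The 30 genes under 0.5 FPM in control cells left little room for a fall there on this scale. The median change was 0.21 in control, 0.31 in MS and 0.64 in MG cells, against 0.02, -0.01 and 0.02 over all tested genes. In the authors' deposited table for control cells, 36 of the 105 genes with an adjusted p were called higher and 9 lower, against 21.5% and 21.7% of all genes.

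Some of these counts moved with single libraries. Replicate 3 was the lowest of its GM group for 71 of the 110 genes in control, 69 in MS and 81 in MG cells. Without MS GM replicate 3, 18 genes rose in MS cells in place of 31. Without Ctrl GM replicate 3, 26 rose in control cells, and without MG GM replicate 3, 50 rose in MG cells. The 11 genes that fell in MS cells became 7 without MS GM replicate 1, 6 without MS DM3 replicate 2 and 6 without MS DM3 replicate 3. By line, 15 genes rose in all 3 lines, 20 in MG alone, 14 in control and MG, 10 in both MUNC lines and 21 were called in none. Efhd1 and Leprel1 were called lower in MS and higher in MG cells. The Leprel1 call in MS (-0.76 ± 0.23 SE, adjusted p = 0.0164) was lost without MS GM replicate 1 (-0.45, adjusted p = 0.0959) or MS DM3 replicate 2 (-0.72, adjusted p = 0.0528).

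**Figure D2:**
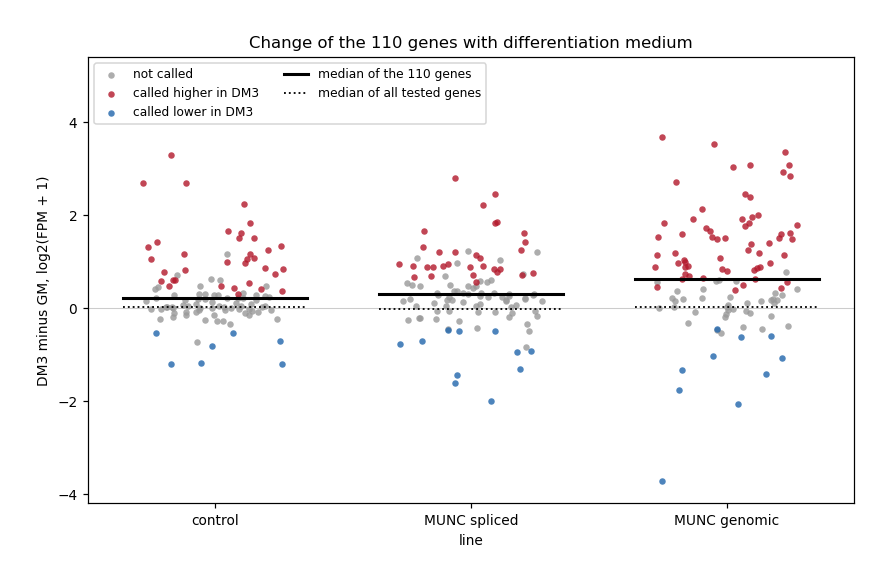
Change from GM to DM3 in log2(FPM + 1) for each of the 110 genes (points) in the 3 lines. Red and blue mark genes called higher and lower, the thick line is the median of the 110 genes and the dotted line the median of all tested genes. The median of the 110 genes is 0.21 in control, 0.31 in MS and 0.64 in MG cells, and the lowest point, in MG cells, is Sox11 (-3.72).

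The MUNC lines also differed from each other in these genes. In GM, 55 of the 110 were called (35.8% of tested genes), 32 higher in MS than in MG and 23 lower (19.9% and 16%). In DM3, 67 were called (44.2% of tested genes), 24 higher in MS and 43 lower (23.4% and 20.8%). Across the media, 16 genes were higher in MS in both and 21 lower in both, while 27 were called in neither. Of the rest, 20 were lower in MS in DM3 alone, 14 higher in GM alone and 8 higher in DM3 alone. A further 2 were higher in MS in GM and lower in DM3, and 2 were lower in GM alone. The median difference, MS minus MG, was 0.16 in GM and -0.32 in DM3, against 0.02 and 0.03 over all tested genes.

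**Figure D3:**
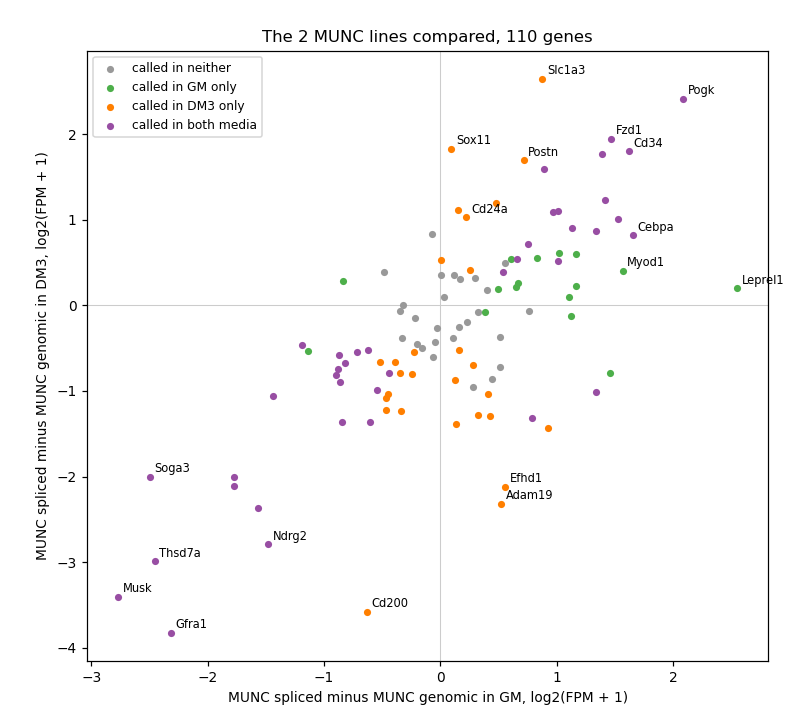
MS minus MG in log2(FPM + 1) for each of the 110 genes, in GM (horizontal axis) and in DM3 (vertical axis). Colours mark the media in which the difference was called. Pogk, Fzd1 and Cd34 lie at the upper right, higher in MS in both media, and Musk, Gfra1 and Thsd7a at the lower left.

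The response to DM3 itself was compared between the MUNC lines by the interaction of line and medium. The test called 20 of the 110 genes (10.5% of tested genes). The value was lower in MS than in MG cells for 17 and higher for 3 (5.17% and 5.36% of tested genes). The largest differences were those of Cd200 (-2.95 ± 0.72 SE, adjusted p = 0.0159), Adam19 (-2.84 ± 0.40, adjusted p = 0.000254) and Efhd1 (-2.68 ± 0.39, adjusted p = 0.000382). The 3 with a larger value in MS cells were Sox11 (1.73 ± 0.48, adjusted p = 0.0305), Plekhg4 (0.96 ± 0.27, adjusted p = 0.0303) and Fzd3 (0.73 ± 0.16, adjusted p = 0.00919), the last below the level set for naming and added because the count is small. Without some libraries the counts were lower, at 11 of the 17 without MS GM replicate 2, without MG GM replicate 3 or without MG DM3 replicate 3. Of the 3, 1 was called without any one of MS GM replicate 2, MG GM replicates 1 and 3 or MG DM3 replicates 2 and 3. The Plekhg4 call was also lost without MS GM replicate 3 (0.85, adjusted p = 0.0666) and without MS DM3 replicate 1 (0.74, adjusted p = 0.0632), and that of Sox11 without MS GM replicate 1 (1.74, adjusted p = 0.0521).

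Among 19 tested genes of a list of myogenic regulators, Myod1 was the only one of the 110. Myod1 lies at chr7:46376474-46379099 on the plus strand (GRCm38). Control libraries held 0.0854, 0 and 0 FPM in GM and 0.0768, 0 and 0.221 FPM in DM3. In MS cells Myod1 was at 17.9, 8.84 and 10.5 FPM in GM and at 53.3, 16.4 and 16 FPM in DM3. In MG cells the values were 1.66, 2.87 and 6.99 FPM in GM and 18.1, 22.5 and 14.5 FPM in DM3. Every MUNC library therefore lay above every control library, the MS and MG libraries did not overlap in GM, and in DM3 MS replicate 1 stood above the rest. Myod1 rose with DM3 in MG cells (2.13 ± 0.41 SE, adjusted p = 0.000422). The change in MS cells was 0.97 ± 0.41 (adjusted p = 0.0750), and it passed the threshold without MS GM replicate 1 (1.25, adjusted p = 0.0489) or MS DM3 replicate 3 (1.25, adjusted p = 0.0499). In GM, Myod1 was higher in MS than in MG cells (1.57 ± 0.41, adjusted p = 0.00685), a call that DESeq2 did not make (adjusted p = 0.111; the range over the alternatives was 0.00129 to 0.111). In DM3 the difference was 0.40 ± 0.41 (adjusted p = 0.451) and -0.15 without MS DM3 replicate 1. The interaction was -1.17 ± 0.58 (adjusted p = 0.219), and -1.72 without that library (adjusted p = 0.0298). The 9 muscle marker genes, Myod1 among them, summed to 113 to 127 FPM in control GM and 169 to 214 FPM in control DM3 libraries. They summed to 118 to 152 and 316 to 1168 FPM in MS, and to 378 to 664 and 952 to 1121 FPM in MG libraries of the 2 media. Most of the sum in MG cells was desmin, which averaged 476 FPM in GM and 898 FPM in DM3. Without it, the other 8 summed to 89.1 to 97.8 and 105 to 128 FPM in control, to 98.6 to 114 and 279 to 1073 FPM in MS, and to 33.8 to 45.6 and 88.9 to 157 FPM in MG libraries, so that MG lay below control in GM. In GM the lower sum in MG than in control was mostly Myf5 (26.7 against 71.8 FPM on average) and Acta1 (8.20 against 20.7 FPM). Tnnt3 (1.47 against 0.370 FPM) and Myod1 were higher in MG. Myog, at 0.0815 against 0.0287 FPM, was too low in both to rank, since 3 reads were worth 0.0429 to 0.0757 FPM. The part of the muscle marker genes in the results for the 110 genes was not tested.

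Transcription and chromatin factors gave 12 of the 110 genes, out of 660 tested on that list (1.82%, against 0.793% of all tested genes). In DM3, 3 rose in control, 2 rose and 1 fell in MS, and 6 rose and 2 fell in MG cells. Of the whole list, 278, 161 and 233 rose and 84, 49 and 107 fell in the same order. Over all tested genes, 29.6%, 17.2% and 26.3% rose and 28.6%, 18.4% and 25.1% fell. Between the lines, 7 of the 12 were higher in MS in GM and none was called lower, where the whole list had 168 higher and 81 lower. In DM3, 6 were higher and 2 lower (189 and 100 of the whole list). Of all tested genes 19.9% were higher in MS and 16% lower in GM, and 23.4% and 20.8% in DM3. Maf, a basic leucine zipper factor, was at 2.99, 1.73 and 1.32 FPM in control GM and at 33.0, 25.4 and 26.2 FPM in control DM3 libraries. It was at 23.4, 41.4 and 16.9 FPM in MS GM and at 54.6, 78.4 and 56 FPM in MS DM3 libraries, and at 14.7, 16.3 and 12.3 FPM in MG GM and at 160.2, 146 and 161 FPM in MG DM3 libraries. GM and DM3 did not overlap in any line, and Maf rose in control (3.30 ± 0.26 SE, adjusted p = 1.2e-07), MS (1.25 ± 0.26, adjusted p = 0.00138) and MG cells (3.35 ± 0.26, adjusted p = 1.59e-07). The rise was smaller in MS than in MG cells, with an interaction of -2.10 ± 0.36 (adjusted p = 0.00151).

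Sox11, an HMG-box factor of embryonic neural and mesenchymal cells whose promoter is printed above, moved the other way. It was at 0.444, 0.265 and 0.0922 FPM in control GM libraries, at 36.8, 31.5 and 42.0 FPM in MS GM and at 34.8, 34.8 and 32.8 FPM in MG GM libraries. In DM3 it was at 0.0576, 0.0197 and 0.0368 FPM in control, at 20.1, 4.97 and 5.68 FPM in MS and at 2.77, 1.45 and 1.03 FPM in MG libraries. Sox11 fell in both MUNC lines without overlap of the media, with a change in MS of -1.99 ± 0.34 SE (adjusted p = 0.000385) and in MG of -3.72 ± 0.34 (adjusted p = 8.13e-07), and stayed above every control library. In DM3 it was higher in MS than in MG cells (1.83 ± 0.34, adjusted p = 0.000364), with MS replicate 1 well above the other two. Esr1, the gene of oestrogen receptor alpha, averaged 2.01, 17.0 and 8.01 FPM in control, MS and MG cells in GM and 5.99, 43.3 and 27.8 FPM in DM3. It rose with DM3 in all 3 lines, by 1.31, 1.31 and 1.72 (SE 0.30 each, adjusted p = 0.0014, 0.00322 and 0.000184). Egr2, an immediate early gene, passed none of the 6 tests and overlapped with control in both media. In DM3, MG replicate 3 was at 11.1 FPM and control replicate 1 at 12.6 FPM.

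Cebpa, a factor of adipocyte and myeloid differentiation, was at 0.632, 0.549 and 0.169 FPM in control GM libraries, at 13.3, 12.4 and 8.01 FPM in MS and at 4.41, 3.70 and 1.16 FPM in MG. The DM3 libraries were at 1.96, 1.76 and 3.11 FPM in control, at 13.6, 14.4 and 13.4 FPM in MS and at 8.23, 6.55 and 7.45 FPM in MG libraries. The 3 lines did not overlap in either medium. Cebpa was higher in MS than in MG in GM (1.66 ± 0.28 SE, adjusted p = 0.000194) and rose with DM3 in control (1.17 ± 0.28, adjusted p = 0.00178) and MG cells (1.14 ± 0.28, adjusted p = 0.00256). Of 7 adipocyte markers, which include Cebpa, the summed level was 7.03 to 11.2 FPM in control GM and 8.11 to 10.6 FPM in control DM3 libraries. It was 21.5 to 29.7 and 25.3 to 31.3 FPM in MS, and 18.7 to 27.2 and 14.8 to 19.4 FPM in MG libraries. Members went both ways. In MG cells Lpl averaged 14.8 FPM in GM and 5.91 FPM in DM3, against no more than 0.0631 FPM in control. Pparg was lower in MG than in control cells, at 4.32 against 7.03 FPM in GM and 1.63 against 4.32 FPM in DM3. Fabp4 was lower too, at 0.459 against 1.32 FPM and 1.34 against 2.56 FPM. In MS cells Pparg and Cd36 were higher than in control in both media, and Fabp4 was lower. Adipoq, which defines adipocytes, averaged at most 0.0229 FPM in any group and Plin1 at most 0.0440 FPM.

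**Figure D4:**
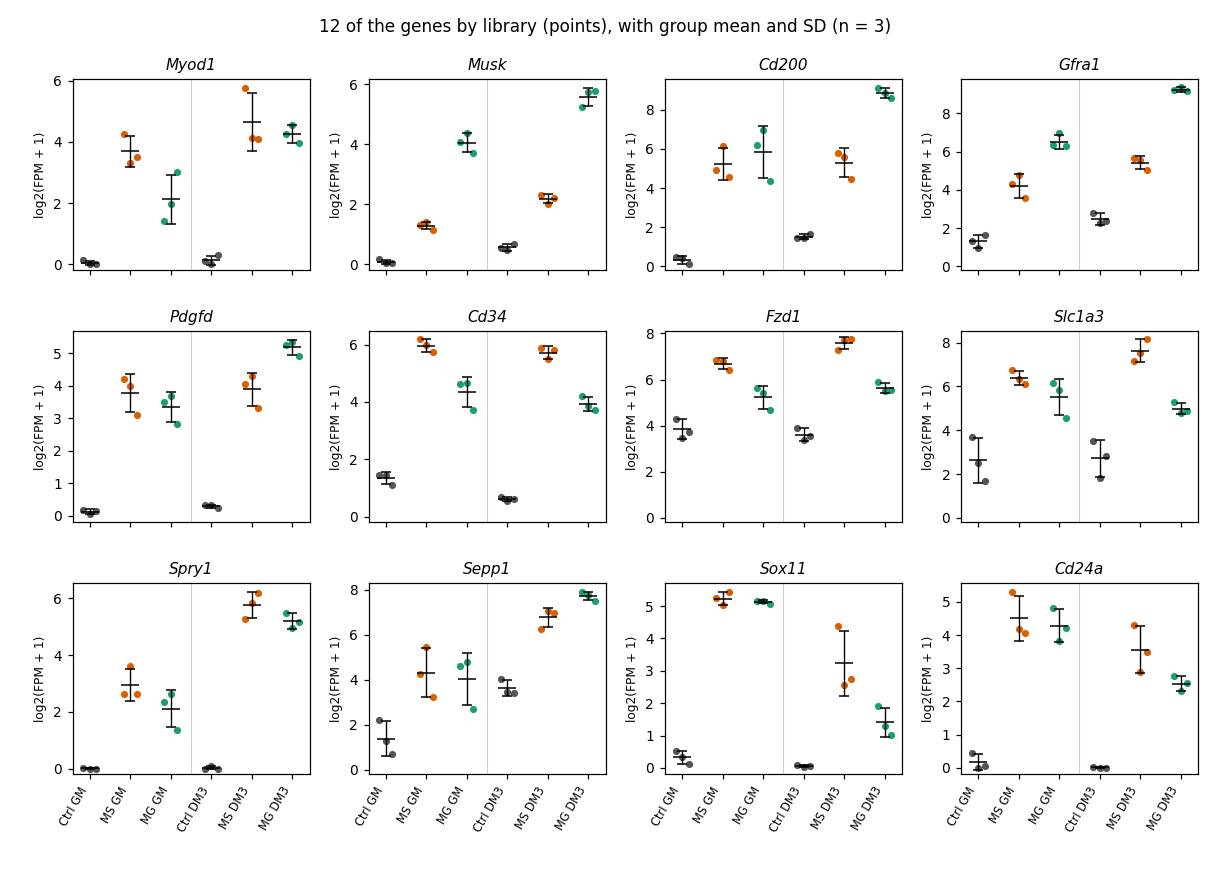
Levels of 12 of the genes in log2(FPM + 1), with a point for each library and bars for the group mean and SD (n = 3), in the 6 groups. Control points lie below the MS and MG points of the same medium in all 12 panels. Musk and Gfra1 are highest in MG, Cd34, Fzd1 and Slc1a3 in MS, Spry1 and Sepp1 are higher in DM3 than in GM in both MUNC lines, and Sox11 and Cd24a have lower means there.

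Cell surface receptors gave 7 of the 110 genes, namely Gfra1, Fzd1, Ptprd, Musk, Pdgfrl, Cxcr4 and Fzd3, out of 219 tested (3.20%). In DM3, 2 rose in control, 5 in MS and 5 in MG cells, where 1 fell. On the whole list 85, 62 and 82 rose, and 45 fell in MG cells. Over all tested genes 29.6%, 17.2% and 26.3% rose, and 25.1% fell in MG cells. Several of the calls depended on single libraries. Fzd1 in MS cells (0.89 ± 0.25 SE, adjusted p = 0.0103) was not called without MS GM replicate 3 (0.76, adjusted p = 0.0555). Musk, one of the 3 genes whose promoters are printed above, was at 0.119, 0.0354 and 0.0307 FPM in control GM libraries, at 1.46, 1.65 and 1.23 FPM in MS and at 15.9, 19.7 and 12.2 FPM in MG. DM3 values were 0.442, 0.395 and 0.608 FPM in control, at 3.95, 3.05 and 3.67 FPM in MS and at 37.0, 52.2 and 54.0 FPM in MG libraries. The order control, MS, MG held for every library of both media. Musk was lower in MS than in MG, with a difference of -2.77 ± 0.17 SE in GM (adjusted p = 1.68e-09) and -3.40 ± 0.17 in DM3 (adjusted p = 9.17e-11). It rose with DM3 in MS (0.90 ± 0.17, adjusted p = 0.000754) and MG cells (1.53 ± 0.17, adjusted p = 3.36e-06), and the difference between these 2 responses was -0.63 ± 0.24 (adjusted p = 0.103). Musk was also called in control cells (0.48 ± 0.17, adjusted p = 0.0223), but not without Ctrl GM replicate 2 (0.46, adjusted p = 0.0536), Ctrl GM replicate 3 (0.46, adjusted p = 0.0589) or Ctrl DM3 replicate 3 (0.42, adjusted p = 0.0796), nor without the filter on low values (adjusted p = 0.0624). The log2 change of Musk in control cells was larger on the recovered reads, without the pseudocount of 1, at 2.90 with edgeR and 3.00 with DESeq2, against 1.32 and 1.33 in MS cells.

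Gfra1, the co-receptor that binds GDNF for the RET kinase, followed the same order. It was at 1.49, 0.973 and 2.09 FPM in control, at 18.7, 26.2 and 10.8 FPM in MS and at 79.7, 122 and 76.6 FPM in MG libraries in GM. In DM3 it reached 5.97, 3.75 and 4.16 FPM in control, 50.6, 45.5 and 31.6 FPM in MS and 589, 659 and 573 FPM in MG libraries. The 3 lines did not overlap in either medium. Gfra1 rose with DM3 in control (1.17 ± 0.27 SE, adjusted p = 0.00161), MS (1.21 ± 0.27, adjusted p = 0.00276) and MG cells (2.72 ± 0.27, adjusted p = 1.55e-06). MS minus MG was -2.31 ± 0.27 in GM (adjusted p = 5.46e-06) and -3.83 ± 0.27 in DM3 (adjusted p = 8.24e-09), and the interaction was -1.51 ± 0.38 (adjusted p = 0.0193). The interaction missed the threshold without MG GM replicate 1 (-1.42, adjusted p = 0.0530) or replicate 3 (-1.39, adjusted p = 0.0506).

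The Wnt receptor gene Fzd1 had the opposite order of the MUNC lines. It was at 18.8, 10.1 and 12.4 FPM in control, at 115, 109.9 and 85.5 FPM in MS and at 48.0, 41.1 and 24.5 FPM in MG libraries in GM, without overlap. After 3 days in DM3 the values were 13.9, 9.35 and 10.8 FPM in control, at 152, 211 and 217 FPM in MS and at 58.4, 44.0 and 45.4 FPM in MG libraries. Fzd1 was higher in MS than in MG in GM (1.47 ± 0.25 SE, adjusted p = 0.000205) and in DM3 (1.95 ± 0.25, adjusted p = 7.66e-06). Ptprd, a receptor tyrosine phosphatase of the synapse, averaged 0.123, 18.6 and 8.03 FPM in control, MS and MG cells in GM and 0.172, 31.5 and 29.2 FPM in DM3. It was higher in MS than in MG in GM (1.11 ± 0.25, adjusted p = 0.00271), and rose with DM3 in MG cells (1.79 ± 0.25, adjusted p = 2.97e-05). Its call in MS cells (0.77 ± 0.25, adjusted p = 0.0265) was not made by edgeR (adjusted p = 0.0785) or DESeq2 (adjusted p = 0.0548), nor with a pseudocount of 0.1 FPM (adjusted p = 0.0991) or without the filter (adjusted p = 0.0626). It was also lost without MS GM replicate 1 (0.73, adjusted p = 0.0759) or 3 (0.54, adjusted p = 0.147), and without MS DM3 replicate 1 (0.68, adjusted p = 0.0726) or 2 (0.68, adjusted p = 0.0923).

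Growth factors and cytokines gave 3 genes out of 125 tested, Pdgfd, Gdf15 and Il18. The rule left out 20 of the 125 by symbol. In MG cells, 2 of the 3 rose with DM3 and 1 fell (39 and 23 of the whole list, 26.3% and 25.1% of all tested genes). Pdgfd, a ligand of the PDGF receptor beta, was at 0.137, 0.0354 and 0.108 FPM in control GM and at 0.250, 0.256 and 0.184 FPM in control DM3 libraries. It was at 17.4, 15.1 and 7.56 FPM in MS GM and at 15.7, 18.6 and 9.02 FPM in MS DM3 libraries, which overlapped, and at 10.4, 11.9 and 6.05 FPM in MG GM and at 37.4, 40.0 and 29.5 FPM in MG DM3 libraries, which did not. Pdgfd rose with DM3 in MG cells (1.84 ± 0.28 SE, adjusted p = 6.1e-05), the change in MS cells was 0.12 ± 0.28 (adjusted p = 0.769), and the interaction was -1.72 ± 0.40 (adjusted p = 0.0120). Gdf15, a stress cytokine, averaged 1.63, 14.3 and 23.7 FPM in GM and 1.48, 11.1 and 8.86 FPM in DM3 in control, MS and MG cells, and fell with DM3 in MG cells (-1.34 ± 0.31, adjusted p = 0.0019). Il18 averaged 0.557, 4.81 and 2.92 FPM in GM and 1.75, 9.65 and 6.71 FPM in DM3, and was called higher in DM3 in control (0.78 ± 0.25, adjusted p = 0.0139), MS (0.92 ± 0.25, adjusted p = 0.00959) and MG cells (0.97 ± 0.25, adjusted p = 0.00394). The control call of Il18 was lost without Ctrl GM replicate 3 (0.69, adjusted p = 0.0516) or Ctrl DM3 replicate 1 (0.52, adjusted p = 0.0862), and the MS call without MS GM replicate 3 (0.67, adjusted p = 0.0651).

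Cell adhesion and surface proteins gave Cd200, Cd34, Cd24a and Igsf10 out of 102 tested genes. All 4 were called between the MUNC lines in DM3, 3 of them higher in MS and 1 lower. On the whole list 33 were higher and 37 lower there. Of all tested genes 44.2% were called there, 23.4% higher in MS and 20.8% lower. The call for Cd24a (1.03 ± 0.34 SE, adjusted p = 0.0226) was lost without MS DM3 replicate 1 (0.65, adjusted p = 0.129), MG DM3 replicate 2 (0.91, adjusted p = 0.0792) or MG DM3 replicate 3 (1.03, adjusted p = 0.0522), and with DESeq2 (adjusted p = 0.196). Cd200, a surface glycoprotein whose receptor restrains myeloid cells, was at 0.410, 0.336 and 0.0768 FPM in control GM and at 1.69, 1.70 and 2.19 FPM in control DM3 libraries. In MS cells it was at 29.6, 69.0 and 22.7 FPM in GM and at 55.0, 47.7 and 20.7 FPM in DM3, and in MG cells at 71.3, 123.6 and 19.8 FPM in GM and at 550.3, 470.2 and 391 FPM in DM3. MS and MG overlapped in GM and were far apart in DM3. Cd200 rose with DM3 in MG cells (3.03 ± 0.51 SE, adjusted p = 0.000137), the change in MS was 0.08 ± 0.51 (adjusted p = 0.927), and MS minus MG in DM3 was -3.58 ± 0.51 (adjusted p = 2.72e-05).

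Cd34, a sialomucin of satellite and haematopoietic stem cells, was at 1.74, 1.73 and 1.14 FPM in control, at 71.4, 61.8 and 52.5 FPM in MS and at 23.8, 24.3 and 12.2 FPM in MG libraries in GM. In DM3 the gene was at 0.615, 0.473 and 0.534 FPM in control, at 58.2, 43.7 and 54.8 FPM in MS and at 17.4, 13.6 and 12 FPM in MG libraries. The 3 lines were apart in both media. Cd34 fell with DM3 in control cells (-0.71 ± 0.22 SE, adjusted p = 0.0109) and was higher in MS than in MG in GM (1.62 ± 0.22, adjusted p = 2.53e-05) and DM3 (1.80 ± 0.22, adjusted p = 5.28e-06). Cd24a, a small surface protein of immature cells, averaged 0.130, 23.6 and 19.3 FPM in GM and 0.00640, 11.8 and 4.84 FPM in DM3 in control, MS and MG cells, and fell in MG cells (-1.75 ± 0.34, adjusted p = 0.000502). It was also called lower in MS cells (-0.95), but not without MS GM replicate 1 (-0.56, adjusted p = 0.217) or with DESeq2 (adjusted p = 0.364). Igsf10 averaged 0.0560, 5.68 and 1.71 FPM in GM and 0.0503, 9.47 and 1.85 FPM in DM3, and was higher in MS than in MG in both media (1.39 ± 0.31, adjusted p = 0.00231 and 1.77 ± 0.31, adjusted p = 0.00022).

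Of 90 tested extracellular matrix genes, Postn and Ntn4 were among the 110. Collagen and laminin genes are not on that list. Col4a5, Col6a1, Col6a2 and Lama2 met the thresholds but were left out by symbol. Postn, which encodes periostin, was at 73.5, 76.6 and 58.7 FPM in control, at 287, 584 and 247 FPM in MS and at 246, 286 and 132 FPM in MG libraries in GM. The level in DM3 was 121, 100.1 and 73.4 FPM in control, at 1011, 1280.2 and 1529 FPM in MS and at 321, 537 and 335 FPM in MG libraries. The MUNC lines overlapped in GM, and in DM3 MS lay above MG. Postn rose with DM3 in MS cells (1.86 ± 0.32 SE, adjusted p = 0.000432) and was higher there than in MG cells (1.70 ± 0.32, adjusted p = 0.000442). It was also called in MG cells (0.88 ± 0.32, adjusted p = 0.0318), but not without MG GM replicate 3 (0.54, adjusted p = 0.185) or MG DM3 replicate 2 (0.64, adjusted p = 0.150). The 10 fibroblast markers in the table, of which Tcf21 was at 0 in all libraries, summed to 289.7 to 434 FPM in control GM, 548 to 865 FPM in MS GM and 324 to 453 FPM in MG GM libraries. In DM3 they summed to 2016 to 2453, 1667 to 2586 and 325 to 452 FPM in the same order, and their part in these results was not tested. Ly6a averaged 1740, 1221 and 32.9 FPM in control, MS and MG cells in DM3. Without it, the sums in DM3 were 415 to 534 FPM in control, 658 to 1335 FPM in MS and 297 to 414 FPM in MG libraries. In MG cells the list held genes of both directions, with Dcn averaging 6.19 FPM in GM and 181 FPM in DM3 and Pdgfrb 327 and 131 FPM. Ntn4, a netrin of basement membranes, averaged 1.83, 10.4 and 14.3 FPM in GM and 6.04, 19.8 and 46.8 FPM in DM3 in control, MS and MG cells. It rose in all 3 lines, by 1.33, 0.90 and 1.65 (SE 0.20 each, adjusted p = 3.69e-05, 0.00273 and 7.3e-06).

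Proteases and their regulators gave Adam19 and Htra3 out of 108 tested genes. Adamts and Mmp genes are not on that list, and Adamts12 and Mmp15 met the thresholds but were left out by symbol. Adam19, a membrane metalloprotease also known as meltrin beta, was at 13.7, 22.8 and 12.4 FPM in control, at 48.0, 82.3 and 49.3 FPM in MS and at 34.1, 67.9 and 27.6 FPM in MG libraries in GM. In DM3 it was at 31.9, 27.7 and 39.0 FPM in control, at 70.9, 70 and 64.7 FPM in MS and at 329, 329 and 379 FPM in MG libraries. The MG libraries in DM3 stood far above all others. Adam19 rose in MG (3.07 ± 0.28 SE, adjusted p = 7.98e-07) and control cells (1.0 ± 0.28, adjusted p = 0.00599), and its change in MS cells was 0.24 ± 0.28 (adjusted p = 0.538). Htra3, a secreted serine protease with CAGCTG in its printed promoter, averaged 0.670, 2.36 and 3.24 FPM in GM and 1.96, 6.27 and 11.6 FPM in DM3 in control, MS and MG cells. It rose in all 3 lines, by 0.86, 1.15 and 1.6 (SE 0.23 each, adjusted p = 0.00384, 0.00108 and 2.96e-05).

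Intracellular signalling regulators gave 9 genes out of 698 tested (1.29%). With DM3, 2 of the 9 rose in control, 3 in MS and 8 in MG cells, where 240, 117 and 196 of the whole list rose. Over all tested genes the shares that rose were 29.6%, 17.2% and 26.3%. The interaction called 2 of the 9, both with a smaller value in MS. On the whole list it called 29 with a larger and 43 with a smaller value, and it called 10.5% of all tested genes. The 8 in MG cells include S100a16 (0.82 ± 0.28 SE, adjusted p = 0.0239), which was not called without MG GM replicate 3 (0.58, adjusted p = 0.129) or MG DM3 replicate 1 (0.69, adjusted p = 0.0897). Spry1, an inhibitor of receptor tyrosine kinase signalling that keeps satellite cells quiescent, was at 0.0171, 0 and 0 FPM in control GM and at 0, 0.0789 and 0 FPM in control DM3 libraries. It was at 5.15, 11.2 and 5.14 FPM in MS GM and at 37.5, 55.5 and 71.3 FPM in MS DM3 libraries, and at 4.05, 5.2 and 1.6 FPM in MG GM and at 44.0, 29.7 and 35.1 FPM in MG DM3 libraries. Both MUNC lines rose without overlap, MS by 2.81 ± 0.31 SE (adjusted p = 7.53e-06) and MG by 3.09 ± 0.31 (adjusted p = 1.54e-06), and the responses differed by -0.28 ± 0.43 (adjusted p = 0.743). Socs2, a suppressor of cytokine signalling, averaged 1.51, 16.7 and 6.01 FPM in GM and 5.93, 23.4 and 47.8 FPM in DM3 in control, MS and MG cells. It was higher in MS than in MG in GM (1.34 ± 0.32, adjusted p = 0.00366), rose in control (1.51 ± 0.32, adjusted p = 0.000748) and MG cells (2.84 ± 0.32, adjusted p = 3.99e-06), and had an interaction of -2.35 ± 0.45 (adjusted p = 0.00335). Peli2, a ubiquitin ligase of Toll-like receptor signalling, averaged 2.79, 29.5 and 13.1 FPM in GM and 2.89, 36.1 and 39.0 FPM in DM3, and rose in MG cells (1.51 ± 0.27, adjusted p = 0.00021). S100a16, a calcium-binding protein, averaged 13.2, 30.5 and 106 FPM in GM and 12.1, 44.6 and 183 FPM in DM3. It was lower in MS than in MG in both media, with differences of -1.77 ± 0.28 (adjusted p = 0.000137) and -2.00 ± 0.28 (adjusted p = 2.64e-05).

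Contractile and cytoskeletal proteins gave Mylk, Kif26b, Synpo2 and Ank1 out of 213 tested genes. In DM3, 3 rose and 1 fell in control and again in MG cells, and 1 rose in MS cells. On the whole list, 65 rose and 59 fell in control, 60 and 49 in MS, and 73 and 57 in MG cells. Over all tested genes 29.6% rose and 28.6% fell in control, 17.2% and 18.4% in MS, and 26.3% and 25.1% in MG cells. The one that fell in MG cells was Ank1 (-0.60 ± 0.19 SE, adjusted p = 0.0149), not called without MG DM3 replicate 1 (-0.52, adjusted p = 0.0590). Mylk, the myosin light chain kinase of smooth muscle, was at 7.36, 6.85 and 3.76 FPM in control, at 30.5, 94.7 and 27.8 FPM in MS and at 21.0, 25.2 and 12.4 FPM in MG libraries in GM. The DM3 libraries were at 24.3, 20.2 and 24.9 FPM in control, at 86.6, 199.7 and 217 FPM in MS and at 80.4, 96.0 and 138 FPM in MG libraries. It rose in control (1.83 ± 0.42 SE, adjusted p = 0.00148), MS (1.82 ± 0.42, adjusted p = 0.00341) and MG cells (2.39 ± 0.42, adjusted p = 0.000208). In MS cells GM replicate 2 overlapped with DM3 replicate 1. Kif26b, an unconventional kinesin, averaged 2.64, 35.5 and 27.7 FPM in GM and 7.63, 43.9 and 108 FPM in DM3 in control, MS and MG cells, and its response was smaller in MS than in MG (-1.60 ± 0.24, adjusted p = 0.000409). Synpo2, an actin-binding protein of the Z-disc, averaged 6.65, 57.1 and 24.9 FPM in GM and 10.4, 68.3 and 57.8 FPM in DM3, and was higher in MS than in MG in GM (1.17 ± 0.14, adjusted p = 5.15e-06). Ank1, an ankyrin, averaged 3.56, 14.4 and 24.1 FPM in GM and 1.59, 10.8 and 15.7 FPM in DM3, fell in control cells (-0.82 ± 0.19, adjusted p = 0.00146) and was lower in MS than in MG in GM (-0.72 ± 0.19, adjusted p = 0.00745). The 7 smooth muscle markers summed to 1349 to 2221 FPM in control GM, 1940.1 to 2702 FPM in MS GM and 2495 to 2777 FPM in MG GM libraries. In DM3 they summed to 1385 to 1503, 2027 to 3387 and 3177 to 4750 FPM. Myh11, which defines the cell type, averaged no more than 0.247 FPM in any group. Most of each sum was Acta2, which averaged 1507, 1979 and 1885 FPM in control, MS and MG cells in GM and 1234, 2247 and 2608 FPM in DM3. Desmin, also on this list, averaged 476 FPM in GM and 898 FPM in DM3 in MG cells. Members went both ways, with Tagln at 258, 131 and 183 FPM in GM and 49.2, 108 and 138 FPM in DM3. Cnn1 averaged 17.2, 1.86 and 6.51 FPM in GM and 6.36, 0.560 and 1.75 FPM in DM3. The part of these markers in the results was not tested.

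Channels and transporters gave 2 genes out of 421 tested, a share of 0.475% that was below the 0.793% of all tested genes. Slc1a3, a glutamate transporter, was at 12.1, 4.73 and 2.18 FPM in control, at 105, 80.1 and 68.1 FPM in MS and at 69.5, 56 and 22.9 FPM in MG libraries in GM. DM3 values were 10.3, 2.58 and 5.99 FPM in control, at 143, 185 and 290.1 FPM in MS and at 37.5, 26.5 and 28.8 FPM in MG libraries. The MUNC lines overlapped in GM only, and Slc1a3 was higher in MS than in MG in DM3 (2.65 ± 0.49 SE, adjusted p = 0.000336). Lrrc8d, a subunit of volume-regulated anion channels, averaged 5.22, 14.9 and 19.8 FPM in GM and 1.56, 12.2 and 20.0 FPM in DM3 in control, MS and MG cells, and fell in control cells (-1.18 ± 0.24, adjusted p = 0.0005). Metabolic enzymes gave 5 genes out of 333 tested, and with DM3 2 of these rose in control, 1 in MS and 5 in MG cells. On the whole list 130, 73 and 114 rose, and over all tested genes 29.6%, 17.2% and 26.3%. The interaction called none of the 5, where the whole list had 32 with a larger and 23 with a smaller value in MS (10.5% of all tested genes were called). The call for Ldhb (0.40 ± 0.15, adjusted p = 0.0399) was lost without MG GM replicate 1 (0.40, adjusted p = 0.0790) or 3 (0.28, adjusted p = 0.181), and without MG DM3 replicate 1 (0.29, adjusted p = 0.168) or 3 (0.43, adjusted p = 0.0618). It was also lost with edgeR (adjusted p = 0.362) and DESeq2 (adjusted p = 0.177). Among them Hsd17b11, a steroid dehydrogenase, averaged 0.664, 5.12 and 10.1 FPM in GM and 1.29, 7.87 and 21.0 FPM in DM3. It rose in MG cells (1.0 ± 0.21, adjusted p = 0.000802) and was lower in MS than in MG in DM3 (-1.36 ± 0.21, adjusted p = 5.28e-05). Akr1c14 and Galnt4 rose in MG cells (1.15 ± 0.33, adjusted p = 0.00792 and 0.56 ± 0.14, adjusted p = 0.00337), and Ldhb averaged 0.132, 4.32 and 6.25 FPM in GM and 0.187, 4.51 and 8.55 FPM in DM3. Akr1c14 was called in MS cells (0.91 ± 0.33, adjusted p = 0.0391), but in 5 of the 6 fits without 1 MS library it was not (adjusted p up to 0.211). The call for Galnt4 in control cells (0.43 ± 0.14, adjusted p = 0.0164) was lost without Ctrl GM replicate 3 (0.38, adjusted p = 0.0577) or Ctrl DM3 replicate 1 (0.33, adjusted p = 0.0783). The list of 129 tested interferon response and antigen presentation genes gave none, but the rule left out 9 of these by symbol.

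Of the 110 genes, 59 belonged to none of the 12 role lists. Thsd7a, a membrane protein with thrombospondin repeats, was at 2.37, 2.80 and 1.2 FPM in control, at 18.6, 22.7 and 12.3 FPM in MS and at 109.9, 133 and 67.7 FPM in MG libraries in GM. After 3 days in DM3 the values were 11.7, 7.40 and 5.21 FPM in control, at 44.5, 50.2 and 49.5 FPM in MS and at 377, 383 and 405 FPM in MG libraries, in the order of Musk and Gfra1. MS minus MG was -2.46 ± 0.28 SE in GM (adjusted p = 3.68e-06) and -2.99 ± 0.28 in DM3 (adjusted p = 2.33e-07). Soga3 averaged 0.0171, 2.11 and 16.6 FPM in GM and 0.00658, 4.13 and 19.4 FPM in DM3 in control, MS and MG cells, with MS minus MG at -2.50 ± 0.12 in GM (adjusted p = 7.44e-11). Pogk, a gene of transposon origin, was at 72.6, 74.8 and 78.0 FPM in MS and at 16.9, 17.1 and 16.8 FPM in MG libraries in GM. Control held 1.52, 1.47 and 1.98 FPM there. It was higher in MS than in MG in GM (2.09 ± 0.14, adjusted p = 5.83e-09) and in DM3 (2.41 ± 0.14, adjusted p = 6.35e-10), and its change with DM3 was called in none of the 3 lines. Leprel1, a collagen prolyl hydroxylase, was at 23.9, 11.1 and 13.3 FPM in MS and at 2.48, 2.09 and 0.966 FPM in MG libraries in GM (2.55 ± 0.23, adjusted p = 2.09e-07). In DM3 the gene was at 7.99, 8.10 and 9.73 FPM in MS and at 7.60, 8.27 and 6.24 FPM in MG libraries, which overlapped. Efhd1, a calcium-binding protein of mitochondria, fell in MS cells from 23.6, 9.37 and 12 FPM to 5.96, 2.35 and 4.03 FPM (-1.60 ± 0.28, adjusted p = 0.000409). It rose in MG cells from 7.73, 11.6 and 8.46 FPM to 20.0, 20.7 and 20.3 FPM (1.07 ± 0.28, adjusted p = 0.00411).

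Sepp1, which encodes the selenium carrier selenoprotein P, rose in all 3 lines. It was at 3.62, 1.43 and 0.615 FPM in control, at 18.2, 43.0 and 8.49 FPM in MS and at 23.8, 26.7 and 5.57 FPM in MG libraries in GM. The level in DM3 was 15.6, 9.92 and 9.78 FPM in control, at 76.6, 132 and 126 FPM in MS and at 236.1, 219 and 181 FPM in MG libraries, without overlap of the media. The changes were 2.25, 2.45 and 3.68 (SE 0.54 each, adjusted p = 0.00206, 0.00252 and 4.12e-05). Dhrs3 rose in control (2.69 ± 0.64, adjusted p = 0.00183) and MG cells (3.53 ± 0.64, adjusted p = 0.000256), and Dapk2, a death-associated kinase, rose in control (2.70 ± 0.52, adjusted p = 0.000321) and MG cells (2.93 ± 0.52, adjusted p = 0.000202). Dhrs3 was called in MS cells too (2.21 ± 0.64, adjusted p = 0.0132), but not without MS GM replicate 1 (1.95, adjusted p = 0.0568), MS GM replicate 3 (2.07, adjusted p = 0.0512) or MS DM3 replicate 3 (2.01, adjusted p = 0.0550). Sertad4 averaged 58.4, 176 and 143 FPM in GM and 123.3, 252 and 402 FPM in DM3 in control, MS and MG cells, and rose in control (1.07 ± 0.24, adjusted p = 0.00127) and MG cells (1.53 ± 0.24, adjusted p = 7.66e-05). Gulp1, an engulfment adaptor, averaged 29.8, 125 and 73.4 FPM in GM and 83.4, 239 and 249 FPM in DM3, and rose in MG cells (1.91 ± 0.48, adjusted p = 0.0034). It was also called higher in control cells (1.61), but not without Ctrl GM replicate 3 (1.05, adjusted p = 0.0621). Pknox2, a homeobox gene, rose in MG cells (1.84 ± 0.28, adjusted p = 5.82e-05). It was called in MS cells too (0.94), but not without MS GM replicate 3 (0.72, adjusted p = 0.0924). That call was also lost without MS DM3 replicate 2 (0.86, adjusted p = 0.0594) or 3 (0.90, adjusted p = 0.0536). Vangl2, a planar cell polarity protein, passed none of the 6 tests.

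Genes that fell with DM3 were fewer. Plekhg4 averaged 10.7, 33.9 and 30.3 FPM in GM and 4.08, 25 and 10.9 FPM in DM3 in control, MS and MG cells. It fell in control (-1.20 ± 0.19 SE, adjusted p = 5.24e-05) and MG cells (-1.41 ± 0.19, adjusted p = 1.73e-05), with a change in MS of -0.45 ± 0.19 (adjusted p = 0.0736). Fam19a5, a secreted chemokine-like protein, fell in MG cells (-2.05 ± 0.41, adjusted p = 0.000545). It was called in MS cells (-1.44 ± 0.41, adjusted p = 0.0115), but not without MS GM replicate 3 (-1.10, adjusted p = 0.0723) or MS DM3 replicate 3 (-1.23, adjusted p = 0.0585). Nxt2, an mRNA export factor, fell in control cells (-0.54 ± 0.21, adjusted p = 0.0331). The call was lost without Ctrl GM replicate 1 (-0.45, adjusted p = 0.117) or 2 (-0.48, adjusted p = 0.0928), and without Ctrl DM3 replicate 2 (-0.48, adjusted p = 0.101) or 3 (-0.42, adjusted p = 0.138).

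By GENCODE M21, 106 of the 110 genes were protein coding (96.4%, against 90% of tested genes), and 1 each was antisense, a lincRNA, a processed transcript and a transcribed pseudogene. They lay on every autosome and the X chromosome. Chromosome 10 held 13 of its 697 tested genes and chromosome 1 held 11 of 837, while chromosome 11 held 1 of 1165. Only 1 pair lay next to each other among the tested genes, Hhat and Sertad4 on chromosome 1, separated by 73265 bases on the same strand. Counting by strand is not stated, so reads of genes that overlap another gene could be shared. Among the genes that this touches on the opposite strand are Pogk (with Tada1), Sepp1 (with Ccdc152), Leprel1 (with Gm4524), Sertad4 (with Gm15867), Cd34 (with Gm16897), Ptprd (with Gm11243) and Lrrc8d (with Rps15a-ps5). On the same strand it touches Galnt4 (with Poc1b), 6530402F18Rik (with Ntng2) and Gm13230 (with Gm13227).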

How the data were processed

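Polyadenylated RNA of 18 libraries, 3 biological replicates in each of 6 groups, was sequenced, per the labels. The submitters' processing notes name STAR, HTSeq, DESeq2 and mm10, without versions or roles. The deposited expression table, a signal in FPM made by the authors as reads divided by a size factor, is called FPKM by a label, but its values hold no gene length, since steps of 1 read gave whole reads for all values within 0.05 of a read. The authors' deposited control comparison gives log2 fold changes and adjusted p-values, and was used for the counts credited to it only. Genes with at least 0.5 FPM in at least 3 libraries were tested on log2(FPM + 1) with limma 3.58.1 in R 4.3.3, with 12 residual degrees of freedom, all 18 libraries in 1 fit and Benjamini-Hochberg adjustment. The script was tested on simulated data. edgeR 4.0.16 and DESeq2 1.42.0 on the recovered reads, a pseudocount of 0.1, no filter, rescaled sums, a replicate block and leaving out each library were the alternatives. Promoters came from RefSeq and gene positions from GENCODE M21. The genes, lists and tests were chosen with earlier results of these data known. The named genes were Myod1, the 12 with the highest mean over the 12 MUNC libraries, up to 4 per list, up to 3 called per direction and comparison at 5 FPM or more, the 8 with the largest smallest difference, and the 3 nearest on each side of the threshold. Genes named outside it were chosen after their values were seen. Shared replicate numbers were checked by correlating deviations from group means over the tested genes. Every pair exceeded 0.1 between control GM and DM3 (0.411, 0.203 and 0.230) and between MS and MG in GM (0.456, 0.699 and 0.727). Libraries of the same number thus shared part of their spread there. Pairing and a shared batch cannot be told apart. In the other comparisons at least 1 pair did not, although 13 of all 15 pairs correlated best with their own number. The main fit, which gave the SE and adjusted p-values, did not use the replicate numbers. Counts with the replicate block are given at the end. P-values cover the spread between these replicates only.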

Additional observations from a re-analysis of the deposited data

Results flagged for a closer look

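For 13 of the named genes the change from GM to DM3 differed between the MUNC lines by the limma interaction test at an adjusted p under 0.05. The difference is that of MS minus that of MG cells on the log2(FPM + 1) scale. It was negative for Cd200 (-2.95), Adam19 (-2.84), Efhd1 (-2.68), Leprel1 (-2.35), Socs2 (-2.35), Maf (-2.1), Pdgfd (-1.72), Kif26b (-1.6), Gfra1 (-1.51), Peli2 (-1.24) and Synpo2 (-0.94). It was positive for Sox11 (1.73) and Plekhg4 (0.96). The call for Peli2 (adjusted p = 0.0453) did not hold for 11 of 12 libraries when each was omitted in turn (-1.34 to -1.13, adjusted p up to 0.101).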

How the results depend on the processing

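Every alternative named in the methods was run. With DESeq2, 11 of the genes fell in control cells in place of 7. With a pseudocount of 0.1 FPM, and likewise with edgeR, 7 fell in MS cells in place of 11, and 11 in place of 17 had a lower response in MS than in MG cells. Without the filter on low values, 1 in place of 3 had a higher response. Leaving out 1 library at a time gave 18 to 41 genes that rose in MS cells, 6 to 14 that fell, 11 to 19 with a lower and 1 to 3 with a higher response in MS. The rule held for 0.793% of the tested genes as reported, for 1.70% with a pseudocount of 0.1 FPM and for 0.195% (27 genes) at a threshold of 2; 118 genes met it after rescaling and 103 to 120 without 1 library, of which 99 to 110 were shared. Myod1 in MS against MG in DM3 changed direction without MS DM3 replicate 1 (-0.15), and the range over libraries left out was -0.15 to 0.69. The cause was not tested. Of 2064 alternative values for 165 pairs of named gene and comparison, 1858 kept direction and side of the threshold, 202 were no longer called, 3 became called and 1 reversed. The replicate block changed none of the 165 calls. With the replicate block, 36 of the genes rose and 8 fell in control, 46 rose and 12 fell in MS and 66 rose and 11 fell in MG cells; 36 were higher and 26 lower in MS than MG in GM, 27 and 46 in DM3, and 4 and 25 by the interaction. Depth limits genes near 0 in control cells, where 3 reads were worth up to 0.0757 FPM.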
